A study of Mus musculus with 12 samples.

Results

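The chemokine ligand genes Ccl2, Ccl3, Ccl4, Ccl5, Ccl6, Ccl9, Ccl12, Cxcl10, Cxcl12 and Cxcl16 were followed in astrocytes of the SOD1G93A mouse, a model of amyotrophic lateral sclerosis. Every probe set that the platform annotation of the array assigns to 1 of these symbols was taken, which gave 15 of 45101 probe sets, for 10 of 18193 genes. Lumbar spinal cord sections of male mice were used, and at least 1500 cells labelled as astrocytes were laser-captured from each animal. SOD1G93A mice carry a transgene of human SOD1 with the G93A mutation under its own promoter, and so not only in astrocytes, as B6SJL-Tg mice bred onto C57Bl/6 J Ola/Hsd, and their non-transgenic littermates (NTg) were the controls. There were 3 SOD1G93A and 3 NTg mice at 90 days, the symptomatic stage, and 3 of each at 120 days, the late stage, with 1 array per mouse. The labels give no other allele or agent, and the transgene itself was not checked here. The captured material is not a pure astrocyte preparation, as described with the marker genes after the results, and in such material more cells of a type and more RNA per cell cannot be told apart.

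Chemokines are small secreted proteins that draw leukocytes and glia along a concentration gradient by binding G protein-coupled receptors on their targets. The CC ligands attract mostly monocytes, macrophages, microglia and T cells, and the CXC ligands studied here attract T cells or keep progenitors and immune cells in place. In the nervous system resting tissue makes little of most of them, with Cxcl12 as an exception, and injury or interferon induces them in microglia, astrocytes and infiltrating cells.

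Most of the genes lie on mouse chromosome 11, where Cxcl16 stands alone and the CC ligands form 2 stretches. In the RefSeq gene order of assembly GRCm38.p6, Ccl2 and Ccl12 are separated by 2 protein-coding genes, Ccl7 and Ccl11. Ccl5, Ccl9, Ccl6, Ccl3 and Ccl4 follow after 27 further protein-coding genes, with 0 protein-coding genes between neighbours of these 5. Cxcl10 lies on chromosome 5 and Cxcl12 on chromosome 6.

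Promoter sequences from RefSeq, which run from 250 bases before the start site to 50 after it on GRCm38.p6, could be matched for 6 of the 10 genes, namely Ccl3, Ccl6, Ccl9, Ccl12, Cxcl10 and Cxcl12. That of Cxcl10 is shown because this interferon-induced gene was higher in late-stage SOD1G93A samples and its window held the most places resembling sites of inducible factors. It lies at chr5:92348840-92349139 on the minus strand, and the capitals mark an interferon response element-like place and a pair of NF-kB-like places.
Cxcl10: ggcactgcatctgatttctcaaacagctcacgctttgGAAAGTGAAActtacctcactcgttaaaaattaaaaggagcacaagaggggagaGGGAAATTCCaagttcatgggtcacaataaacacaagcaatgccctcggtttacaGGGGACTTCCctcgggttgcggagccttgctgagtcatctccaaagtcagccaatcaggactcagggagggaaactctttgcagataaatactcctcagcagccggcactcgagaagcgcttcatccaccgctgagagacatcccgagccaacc
Both strands were searched for GGGNNTTCC, also with 1 more base in its middle (NF-kB-like), and for 2 copies of GAAA with 2 bases of any kind between them (interferon response element-like). The other letters searched were TTCNNNGAA (STAT-like), TTGCNNAA (C/EBP-like) and TATAAA (the letters of the core promoter box, taken at any position). An AP-1-like place was TGA followed after 1 base of any kind by TCA. In the Cxcl10 window GAAAGTGAAA began 213 bases before the start site, GGGAAATTCC 159 bases before it and GGGGACTTCC 104 bases before it, and the last of these also holds the shorter NF-kB-like form, GGGACTTCC. An AP-1-like TGAGTCA began 74 bases before the start site. Of 32851 promoters of the same length, 9.74% held an NF-kB-like place, 3.44% an interferon response element-like place and 8.3% a STAT-like place. An AP-1-like place was held by 7.81%, a C/EBP-like place by 10.8% and TATAAA by 13.6%. Ccl9 held an NF-kB-like place (35 bases before the start site) and an AP-1-like place. It also held TATAAA 92 bases before the start site, and on the other strand 94 and 224 bases before it. Ccl12 held TATAAA 31 bases before its start site. None of the letters searched was found in the windows of Ccl3, Ccl6 and Cxcl12.

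The promoters of Ccl6 and Ccl9 are shown because these neighbouring genes encode related ligands found in rodents and both separated the genotypes at 90 days. That of Ccl6 lies at chr11:83593038-83593337 and that of Ccl9 at chr11:83578587-83578886, both on the minus strand, and the capitals mark runs of at least 12 bases that both windows hold.
Ccl6: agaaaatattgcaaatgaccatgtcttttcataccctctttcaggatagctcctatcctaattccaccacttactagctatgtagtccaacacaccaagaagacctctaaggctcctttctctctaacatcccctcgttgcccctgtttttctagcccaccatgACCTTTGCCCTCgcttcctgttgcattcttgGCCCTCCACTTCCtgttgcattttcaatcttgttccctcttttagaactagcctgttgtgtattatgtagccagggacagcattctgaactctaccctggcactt
Ccl9: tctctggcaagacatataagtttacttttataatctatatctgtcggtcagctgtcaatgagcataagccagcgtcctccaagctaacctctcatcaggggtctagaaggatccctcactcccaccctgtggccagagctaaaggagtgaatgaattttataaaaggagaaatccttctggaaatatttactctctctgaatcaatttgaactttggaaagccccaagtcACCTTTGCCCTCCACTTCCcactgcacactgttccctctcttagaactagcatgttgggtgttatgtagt
The run of 19 bases in Ccl9, ACCTTTGCCCTCCACTTCC, has its first 12 and its last 13 bases at separate places in Ccl6. A shared run is a description of the sequence, and no binding was measured.

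The values are linear signals as the MAS5 algorithm gives them, scaled by the authors to the same trimmed mean of 100 on every array. For the tests, log2(signal + 7) was normalized within each age, probe sets above the median of the array on at least 3 arrays were kept, and limma was fitted to all 26132 of these. A probe set was called at a Benjamini-Hochberg adjusted p under 0.05. Fold changes are SOD1G93A over NTg on that scale, which understates the change of dim probe sets. Signals of different probe sets are not comparable as levels. Of the 15 probe sets 12 were tested, covering 9 genes. The only probe set of Ccl12, 1419282_at, and 1 each of Ccl9 and Cxcl12 were too dim. For 5 of the 12, those of Ccl3, Ccl5 and Ccl9, Ccl6 1420249_s_at and Cxcl16 1449195_s_at, all arrays above the median were of SOD1G93A mice. Their passing the filter is therefore tied to the difference, and counts over the 12 are given as a description.

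The arrays were of uneven quality. Late-stage SOD1G93A arrays had a median signal of 38.8 to 55.2 and a mean correlation with their own group of 0.835 to 0.88, where the other groups had medians of 24.9 to 37.1 and correlations of 0.914 to 0.952. SOD1G93A replicate 3 at 120 days stood farthest apart, and without it 6 chemokine probe sets were called at 120 days, as with it. The log2 ratio of 3′ to 5′ actin signal was 3.89 to 5.89 over all arrays. No pair of arrays was identical. Aligning array medians instead moved the median fold change of all probe sets at 120 days from -0.07 to -0.33 (log2) and the higher calls from 48.5% to 19.1% of all calls, while the median of the 12 chemokine probe sets went from 1.60 to 1.48.

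At 120 days Ccl4, Ccl5, Ccl6 and Cxcl10 were higher in SOD1G93A samples, as was 1 of the probe sets of Cxcl16. That is 6 of 12 tested probe sets higher and 0 lower in the limma fit, where 3.6% of all tested probe sets were called higher and 3.82% lower. With all probe sets tested, dim ones included, the same 6 of 15 were called, and 1.6% of all were called higher. SOD1G93A and NTg arrays did not overlap for 8 of the 12, all higher, against 17.5% of all tested probe sets. At 90 days 0 of 12 were called by limma, where 0.115% of all were called higher and 0.023% lower, although 7 of the 12 had an unadjusted p under 0.05, against 1465 (5.61%) of all 26132. The arrays of both genotypes did not overlap for 7 of the 12 at 90 days, all higher, against 6.46% of all. By a looser rule, a 2-fold change at an unadjusted p under 0.05, 7 of the 12 were higher at 90 days and 8 at 120 days, against 0.999% and 5.23% of all tested. The study had already listed Ccl3, Ccl4, Ccl6, Ccl9 and Cxcl10 as higher by such a rule, from these same arrays. The counts of this paragraph therefore describe genes chosen with that known, and are not independent support. The median log2 fold change of the 12 was 1.01 at 90 days and 1.60 at 120 days, and that of all tested probe sets was -0.00 and -0.07.

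**Figure D1:**
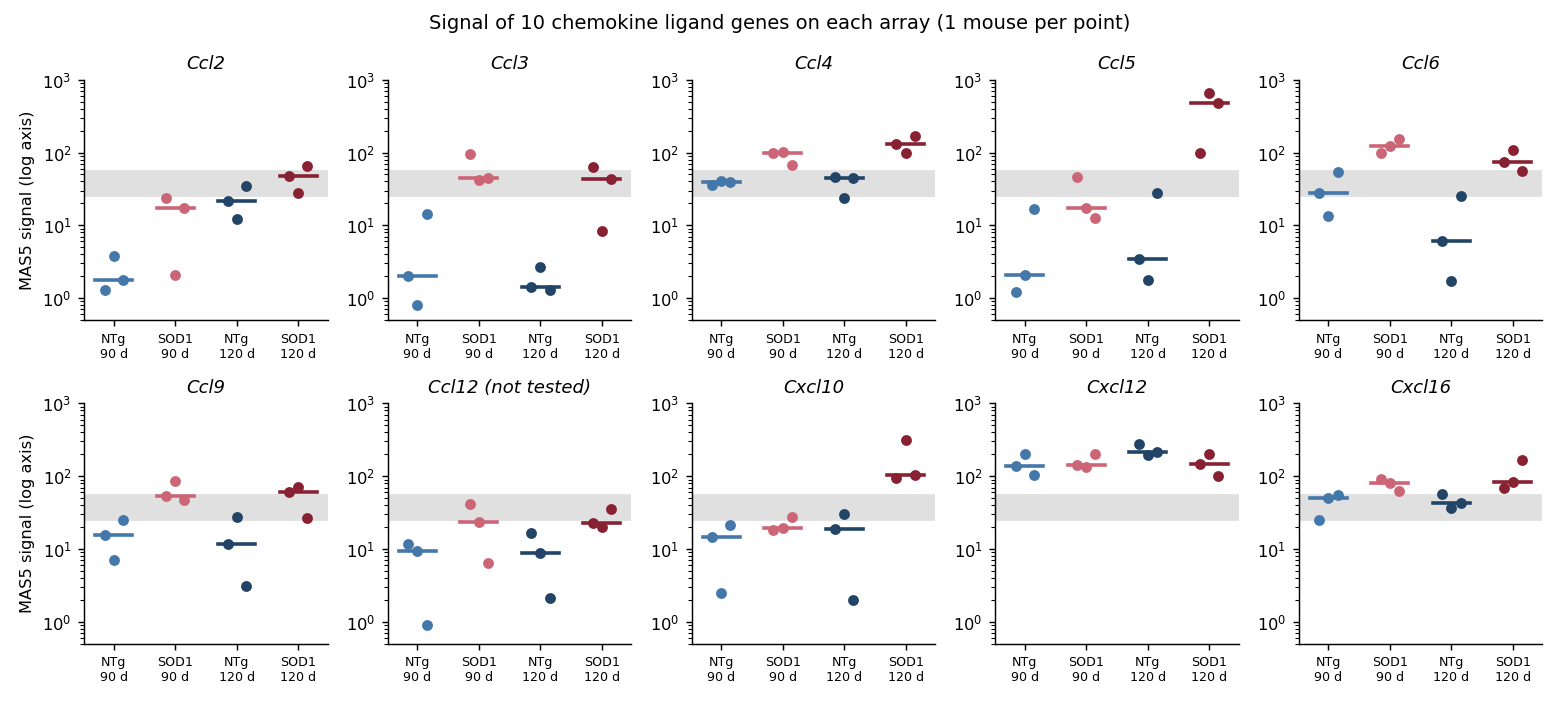
MAS5 signal (log axis) of the brightest probe set of each of the 10 genes in the 4 groups, with 1 point per mouse, a bar at the group median and a grey band over the range of array medians. Ccl4 and Ccl6 separate the genotypes at both ages, Ccl5 and Cxcl10 separate them at 120 days, and Cxcl12 overlaps at both.

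Ccl5, Ccl4 and Ccl3 draw T cells, monocytes and microglia. The Ccl5 probe set (1418126_at) gave the largest fold change of the 12 at 120 days. At 120 days it read 98.3, 657 and 484 on the SOD1G93A arrays and 3.5, 1.8 and 28.2 on the NTg arrays. The lowest SOD1G93A value lay above the highest NTg value, and SOD1G93A replicate 1 was well below the other two. The log2 fold change was 4.43 ± 0.70 (SE, n = 3 mice per group), with a 95% interval of 2.92 to 5.93 and an adjusted p of 0.00305 in limma. At 90 days the arrays read 46.2, 17.3 and 12.7 in SOD1G93A and 1.2, 2.1 and 16.6 in NTg mice, so the groups overlapped, and the log2 fold change was 1.31 ± 0.70 (SE; adjusted p = 0.963, limma).

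Ccl4 (1421578_at) was separated at both ages. Its signal at 90 days was 98.5, 102 and 66.8 in SOD1G93A and 36.2, 40.5 and 38.9 in NTg mice. At 120 days it was 131, 97.5 and 170 in SOD1G93A and 46.8, 23.9 and 44.3 in NTg mice. The highest NTg value lay below the lowest SOD1G93A value each time. On the log2 scale the difference was 1.01 ± 0.28 at 90 days (SE; adjusted p = 0.35) and 1.44 at 120 days (95% interval 0.85 to 2.03, adjusted p = 0.00926, limma), and without NTg replicate 2 of 120 days the adjusted p at 120 days was 0.0632.

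Ccl3 (1419561_at) was higher on every SOD1G93A array than on every NTg array of its age. It read 96.6, 42.3 and 44.7 in SOD1G93A and 2.0, 0.8 and 14.2 in NTg mice at 90 days. At 120 days it read 62.6, 8.3 and 43.8 against 1.4, 2.7 and 1.3. Within the SOD1G93A mice, replicate 2 at 120 days was the low one. It differed by 2.51 ± 0.52 on the log2 scale at 90 days (SE; adjusted p = 0.126) and 1.77 at 120 days (95% interval 0.65 to 2.88, adjusted p = 0.0543, limma). Leaving out that replicate 2 gave 2.51 at 90 days and 2.37 at 120 days, both called (adjusted p = 0.0355 and 0.0129, limma). It was the lowest of its group, so the larger difference at 120 days follows from dropping it. The 90-day value stayed the same, as no array of that age was dropped. Its adjusted p could change all the same, as all 4 groups share 1 estimate of the spread. That call therefore adds no data of 90 days. With each array left out in turn Ccl3 at 120 days was 1.21 to 2.37, and over all alternatives it was called in 6 of 23.

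Ccl6 and Ccl9 bind Ccr1, which myeloid cells carry. Ccl6 has 2 tested probe sets. The brighter, 1417266_at, read 99.8, 121 and 154 in SOD1G93A and 27.8, 13.5 and 54.1 in NTg mice at 90 days, and 73.1, 107 and 55.3 against 6.0, 1.7 and 25.4 at 120 days. All SOD1G93A values lay above all NTg values at each age. Its log2 fold change was 1.81 ± 0.48 (SE; adjusted p = 0.32) at 90 days and 2.13 at 120 days (95% interval 1.09 to 3.17, adjusted p = 0.0204, limma). Its call at 120 days was lost in 5 alternatives, among them leaving out SOD1G93A replicate 2, NTg replicate 1 or NTg replicate 2 of 120 days, with adjusted p values of 0.051, 0.0696 and 0.111.

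The second probe set of Ccl6, 1420249_s_at, whose suffix marks probes that match several transcripts, read 34.0, 39.8 and 51.9 in SOD1G93A and 11.3, 11.5 and 19.7 in NTg mice at 90 days. At 120 days it read 61.0, 69.3 and 64.8 against 18.8, 1.3 and 1.1. The groups were separate at both ages, as with the first probe set. In limma the difference was 1.15 on the log2 scale at 90 days (adjusted p = 0.558) and 2.33 at 120 days (95% interval 1.52 to 3.13, adjusted p = 0.00342).

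Ccl9 (1417936_at) read 53.0, 85.3 and 46.6 in SOD1G93A and 15.7, 7.0 and 25.1 in NTg mice at 90 days, and 61.2, 70.1 and 26.4 against 11.9, 27.8 and 3.1 at 120 days. The genotypes were separate at 90 days and overlapped at 120 days, through SOD1G93A replicate 3. The log2 fold change was 1.56 ± 0.52 at 90 days (SE; adjusted p = 0.573) and 1.21 at 120 days (95% interval 0.09 to 2.32, adjusted p = 0.161, limma). The other probe set of Ccl9, 1448898_at, stayed between 0.4 and 16.0 on all arrays and was not tested.

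Ccl2 and Ccl12 bind Ccr2 and recruit monocytes. Ccl2 (1420380_at) read 23.6, 2.1 and 17.3 in SOD1G93A and 1.3, 3.8 and 1.8 in NTg mice at 90 days, and 48.3, 27.8 and 65.8 against 21.4, 12.3 and 35.1 at 120 days. The groups overlapped at both ages. Its log2 fold change was 1.01 at 90 days (95% interval 0.11 to 1.90, adjusted p = 0.812) and 0.46 at 120 days (95% interval -0.43 to 1.36, adjusted p = 0.507, limma). Ccl12 read 41.1, 23.3 and 6.5 in SOD1G93A and 11.9, 9.5 and 0.9 in NTg mice at 90 days, and 23.0, 19.8 and 35.1 against 16.4, 8.7 and 2.1 at 120 days. Its signals overlapped at 90 days and not at 120 days, but after normalization they overlapped at 120 days too (4.58 in SOD1G93A replicate 2 and 4.60 in NTg replicate 1 on the log2 scale), and it was too dim to be tested.

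Cxcl10 binds Cxcr3 on activated T cells and is a classical interferon target. Its signal (1418930_at) at 90 days was 18.2, 19.4 and 27.9 in SOD1G93A and 14.4, 2.5 and 21.4 in NTg mice. At 120 days it was 94.6, 312 and 105 against 18.6, 30.6 and 2.0. The groups overlapped at 90 days and were separate at 120 days, with SOD1G93A replicate 2 the highest, as for Ccl5. The log2 fold change was 0.63 ± 0.58 (SE; adjusted p = 1) at 90 days and 2.70 at 120 days (95% interval 1.45 to 3.95, adjusted p = 0.0163, limma). Without NTg replicate 3 of 120 days it was 2.03, with an adjusted p of 0.0712.

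Cxcl16 is made as a membrane protein that binds Cxcr6 and takes up oxidised lipoprotein, and Adam10 can shed it. Its probe sets gave unlike sizes, and the suffix of the dimmer one marks probes that match several transcripts. The dimmer, 1449195_s_at, read 25.6, 32.5 and 37.5 in SOD1G93A and 4.7, 11.4 and 21.2 in NTg mice at 90 days, and 122, 73.9 and 87.6 against 1.5, 0.6 and 1.4 at 120 days. The groups were separate at both ages and farther apart at 120 days. Its log2 fold change was 1.01 ± 0.31 (SE; adjusted p = 0.486) at 90 days and 3.44 at 120 days (95% interval 2.77 to 4.10, adjusted p = 9.89e-05, limma).

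The brighter Cxcl16 probe set, 1418718_at, read 90.3, 79.7 and 61.9 in SOD1G93A and 25.0, 50.3 and 55.3 in NTg mice at 90 days, and 69.6, 82.5 and 166 against 57.2, 36.1 and 42.3 at 120 days. The groups were separate at both ages here too, by a smaller margin. The log2 fold change was 0.72 (95% interval -0.02 to 1.46, adjusted p = 0.908) and 0.86 (95% interval 0.12 to 1.60, adjusted p = 0.134, limma). Which transcripts each probe set detects was not tested, so the size of the Cxcl16 difference at 120 days depends on the probe set.

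Cxcl12 holds progenitors and immune cells in place through Cxcr4 and is taken up by Ackr3. It was the member with no called probe set and no common direction. At 120 days 1417574_at read 145, 202 and 101 in SOD1G93A and 276, 197 and 217 in NTg mice, and the groups overlapped through SOD1G93A replicate 2. Its log2 fold change was 0.11 at 90 days (adjusted p = 1) and -0.65 at 120 days (95% interval -1.36 to 0.06, adjusted p = 0.231, limma). The second, 1448823_at, went from -0.07 (adjusted p = 1) to 0.32 (95% interval -0.29 to 0.94, adjusted p = 0.505). The third, 1439084_at, was not tested, and its SOD1G93A mean lay 1.00 below NTg at 90 days and 1.03 below at 120 days on the log2 scale.

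**Figure D2:**
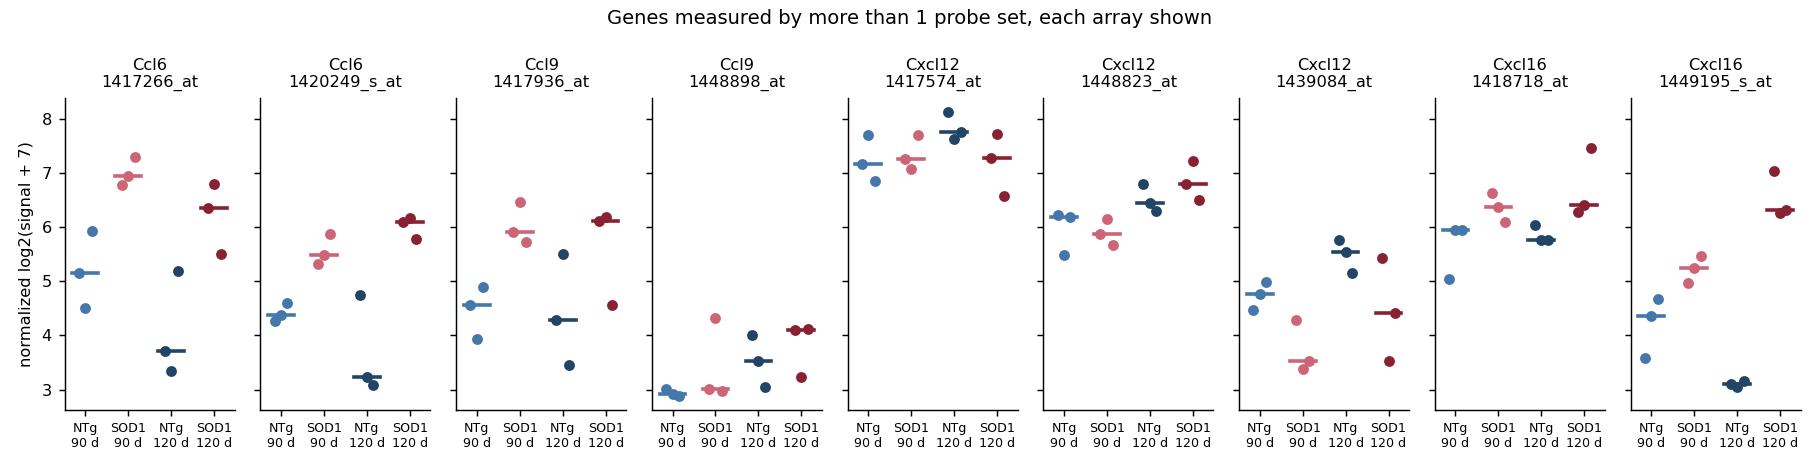
Normalized log2(signal + 7) on each array for the 9 probe sets of Ccl6, Ccl9, Cxcl12 and Cxcl16, with 1 point per mouse and a bar at the group median. The 2 Ccl6 probe sets separate the genotypes at both ages, and Cxcl16 1449195_s_at opens a wider gap at 120 days than 1418718_at.

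The contrast between the ages asked whether the genotype difference itself grew or shrank. limma called 0 of the 12 probe sets, and 0 of all 26132 (0% higher, 0% lower), with 2412 (9.23%) of all and 4 of the 12 at an unadjusted p under 0.05. By the looser rule 4 of the 12 were higher in this contrast, against 3.29% of all. The smallest p was that of the Cxcl16 probe set 1449195_s_at, which changed by 2.42 ± 0.44 on the log2 scale (SE; 95% interval 1.48 to 3.37, adjusted p = 0.192), rank 12 of 26132 by p. The Ccl5 change was larger and less precise, 3.11 ± 0.99 (SE; 95% interval 0.99 to 5.24, adjusted p = 0.428), and for Cxcl10 2.07 (adjusted p = 0.5). For Ccl3 it was -0.74 (adjusted p = 0.77), for Ccl4 0.43 (adjusted p = 0.752) and for Ccl6 1417266_at 0.33 (adjusted p = 0.901). The other Ccl6 probe set, 1420249_s_at, changed by 1.18 (95% interval 0.04 to 2.31, adjusted p = 0.529). The brighter Cxcl16 probe set, 1418718_at, changed by 0.14 (adjusted p = 0.945). Mean signal of Cxcl16 1449195_s_at was 12.4 at 90 days and 1.17 at 120 days in NTg mice, and 31.9 and 94.3 in SOD1G93A mice.

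**Figure D3:**
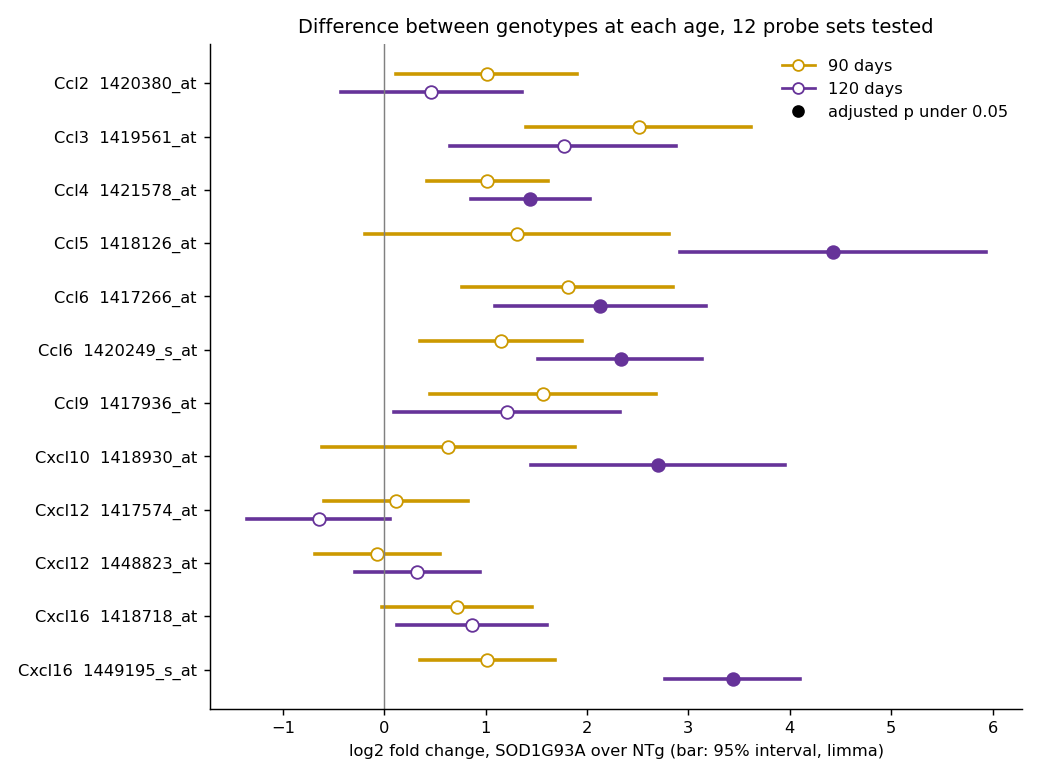
Log2 fold change of SOD1G93A over NTg with its 95% interval (limma) at 90 and 120 days for the 12 tested probe sets, with filled points where the adjusted p was under 0.05. The 6 filled points are all at 120 days and all above 0.

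**Figure D4:**
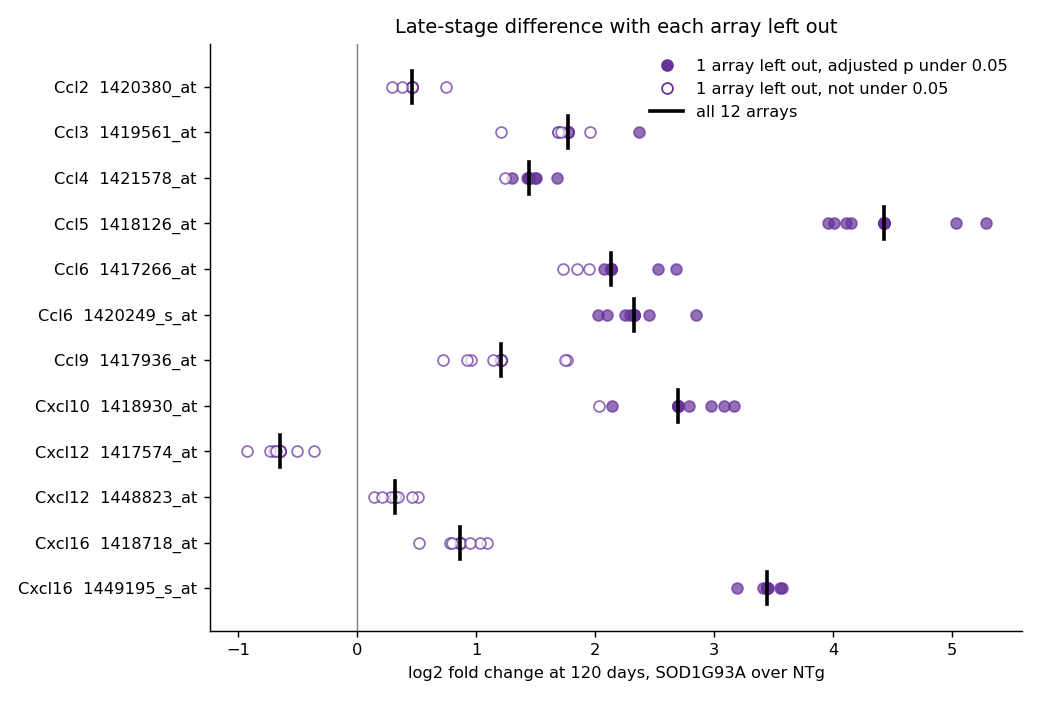
Log2 fold change at 120 days of the 12 tested probe sets with each of the 12 arrays left out in turn (points) and with all arrays (bar), filled where the adjusted p was under 0.05. Ccl5 stayed between 3.96 and 5.28 and was called in each, whereas Ccl6 1417266_at, Ccl4 and Cxcl10 each lost the call in at least 1.

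Counts of the gene lists below stand beside the shares called over all tested probe sets. These were 0.115% higher and 0.023% lower at 90 days, and 3.6% higher and 3.82% lower at 120 days. Among the genes around these ligands, other chemokines were mostly dim. Of 26 other chemokine ligand genes 25 had a probe set with that 1 symbol and 10 were tested, with 0 called at either age by limma. The smallest p among them was that of Cxcl14, expressed in brain and epithelia, whose log2 fold change was 1.51 at 120 days (adjusted p = 0.0597, limma) and 0.24 at 90 days. Cx3cl1, the neuronal ligand of Cx3cr1, was at -0.59 (adjusted p = 0.203) and the neutrophil ligand Cxcl1 at 0.50 (adjusted p = 0.331) at 120 days, the latter by a probe set that also matches other sequences. Over the alternatives, calls at 120 days were gained by Cxcl14 in 6 of 24 and by Cx3cl1 in 1 of 24. The median log2 fold change of the 10 tested ligands was 0.08 at 90 days and 0.40 at 120 days.

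The receptors of the ligands were below the filter with few exceptions. Of 18 chemokine receptor genes 16 had a probe set and 2 were tested. Cx3cr1, the microglial receptor of Cx3cl1, rose by 1.75 at 120 days (adjusted p = 0.0229) and stood at 0.81 (adjusted p = 0.933) at 90 days, and Cxcr3 was at 0.39 (adjusted p = 0.476) at 120 days. Ccr1, Ccr2, Cxcr4 and Cxcr6 were too dim to be tested. Of 5 atypical receptors, which bind chemokines without G protein signalling, 4 were tested and 0 called. Ackr1, which endothelial cells carry, was at -1.40 (adjusted p = 0.0521), Ackr3 at -0.54 (adjusted p = 0.256) and Ackr4 at 0.57 (adjusted p = 0.342) at 120 days. Over the alternatives Ackr1 gained a call as lower at 120 days in 10 of 24.

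Of 21 genes that act below chemokine receptors 17 were tested, with 0 called at 90 days. At 120 days, where 3.6% of all tested probe sets were called higher and 3.82% lower, 5 of the 17 were higher and 0 lower. These were the G protein subunit Gnai2 (log2 fold change 1.05, adjusted p = 0.0291), the kinase subunit Pik3cg (0.91, adjusted p = 0.046), the exchange factor Vav1 (0.97, adjusted p = 0.0492), the actin regulator Was (1.64, adjusted p = 0.0245) and the oxidase subunit Ncf1 (1.70, adjusted p = 0.00757). All but Gnai2 are known mainly from blood and myeloid cells. Over the alternatives that tested them, Vav1 lost its call in 16 of 23, Pik3cg in 10 of 20, Gnai2 in 8 of 24 and Was in 4 of 20, and Ncf1 in 0 of 24. The median of the 17 was 0.25 at 90 days and 0.39 at 120 days.

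Of 22 inducers of chemokines 13 were tested. Irf8, a transcription factor of myeloid cells, was higher at 90 days by 2.23 on the log2 scale (adjusted p = 0.0101, limma) and at 120 days by 2.84 (adjusted p = 0.000261). Irf1, an interferon-induced factor, was higher by 1.15 (adjusted p = 0.0321) and Tlr2, a pattern receptor, by 1.39 (adjusted p = 0.0265) at 120 days. The other 10 were not called at either age, and the median of the 13 was 0.56 at 90 days and 0.79 at 120 days. Over all tested probe sets 0.115% were called higher at 90 days and 3.6% at 120 days. Tnf, Il1a, Il1b, Il6, Ifng and Ifnb1, the cytokines of the list, were too dim to be tested. At 90 days Irf8 lost its call in 4 of 24 alternatives, and at 120 days Irf1 did in 9 of 24 and Tlr2 in 7 of 23. Of 7 proteases that cut or shed chemokines 5 were tested. Mmp2 was higher by 2.30 (adjusted p = 0.00622) and Mmp9 lower, at -1.61 (adjusted p = 0.0292), at 120 days, and Adam10, which sheds Cxcl16, was at 0.51 (adjusted p = 0.171). At 90 days Mmp9 was at -2.18 (adjusted p = 0.0642), called in 5 of 24 alternatives. Its call at 120 days was lost in 7 of 24, among them leaving out SOD1G93A replicate 2, NTg replicate 2 or NTg replicate 3 of 120 days (adjusted p = 0.0703, 0.132 and 0.114).

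Among markers of other cell types, microglial genes made up most of those called higher. Of 12 microglial marker genes 11 had a probe set and 10 were tested. Fcrls and Trem2 were called higher at 90 days, and Csf1r, Aif1, Cx3cr1, Fcrls, Trem2 and Tyrobp at 120 days. Of all tested probe sets 0.115% and 3.6% were called higher at these ages. P2ry12, Tmem119, Siglech and Sall1 were tested and not called at either age, and Sall1 was at -0.41 and -0.09. Trem2 lost its call in 7 of 23 alternatives at 90 days and in 15 of 23 at 120 days, where its log2 fold change of 1.39 was 0.87 without SOD1G93A replicate 1 of 120 days. Cx3cr1 lost its call in 6 of 24, and Csf1r, Aif1, Fcrls and Tyrobp kept theirs at 120 days in each alternative that tested them. At 90 days Tyrobp gained a call in 7 of 24 alternatives, Csf1r in 3 of 24 and Aif1 in 1 of 23. The summed signal of the 11 was 2220 to 3900 in NTg and 5310 to 7810 in SOD1G93A mice at 90 days, and 1220 to 1500 against 5930 to 6470 at 120 days, with most of it from Csf1r. The median log2 fold change of the 10 was 0.96 and 1.50, next to 1.01 and 1.44 for the 9 tested chemokine genes, each by its brightest probe set. The part of microglia in the chemokine differences was not tested.

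Of 9 markers of border macrophages and monocytes 3 were tested, and Ms4a7 was higher at 120 days by 2.14 (adjusted p = 0.004). The sum of the 8 with a probe set was 71.7 to 191 in NTg and 243 to 630 in SOD1G93A mice at 120 days. T cell markers summed to 55.7 to 68.8 in NTg and 88.5 to 121 in SOD1G93A mice at 120 days, with 1 of 6 tested and not called, and the group means of Cd3e, Cd3d and Cd3g, which define T cells, were 1 to 10.6. Markers of NK cells summed to 18.6 to 44.4 in NTg and 23.2 to 90.8 in SOD1G93A mice, of B cells to 26.9 to 43.5 and 59.6 to 140, and of neutrophils to 22.7 to 74.8 and 46.8 to 134. None of these lists had a called gene, and Cd8a, the tested T cell gene, was at -0.24 at 120 days. The sums are of signals before normalization, and SOD1G93A arrays of 120 days had medians of 38.8 to 55.2 against 27.9 to 37.1 in NTg. SOD1G93A replicate 3, with the highest median, gave the highest late-stage sum of each cell type in this paragraph. The part of array medians in these sums was not tested. Ccl5 is made in quantity by T and NK cells, whose defining markers were dim, and their part in its difference was not tested.

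The labelled cell type was checked with 12 astrocyte markers, all tested. Their summed signal was 28900 to 35900 in NTg and 33400 to 39500 in SOD1G93A mice at 90 days, and 17800 to 21700 against 19500 to 30200 at 120 days. Aldh1l1, Gfap and Sox9 were higher at 120 days, against 3.6% of all tested probe sets, and the other 9 were not called. Over the alternatives Aldh1l1 lost its call in 2 of 24, Sox9 in 6 of 23 and Gfap in 0 of 24. Mean Gfap signal was 2200 in NTg and 5600 in SOD1G93A mice at 90 days, and 148 and 4200 at 120 days. Its log2 fold change of 4.80 at 120 days thus came with a lower NTg signal than at 90 days, the cause of which was not tested. Of 7 neuronal markers Rbfox3, Snap25, Nefl and Nefm were lower at 120 days, where 3.82% of all tested probe sets were called lower. The sum of the 7 was 16900 to 21900 in NTg and 7090 to 12100 in SOD1G93A mice. These 4 calls were lost in 9 (Rbfox3), 7 (Snap25), 8 (Nefl) and 2 (Nefm) of 24 alternatives. Oligodendrocyte markers were bright, with sums of 22200 to 27600 and 34600 to 48500 at 120 days, which did not overlap. Mbp, the brightest of them, had means of 12700 and 22100 at 120 days but was at 0.00 at both ages after normalization. Quantile normalization gives the brightest probe sets equal values on all arrays of an age, so Mbp could not be called. Markers of endothelial cells and pericytes summed to 1400 to 2340 and 1500 to 2250, and those of fibroblasts to 244 to 444 and 367 to 3190. The 3190 was SOD1G93A replicate 3 alone, and replicates 1 and 2 read 451 and 367. In these 3 lists 0 genes were called at either age.

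**Figure D5:**
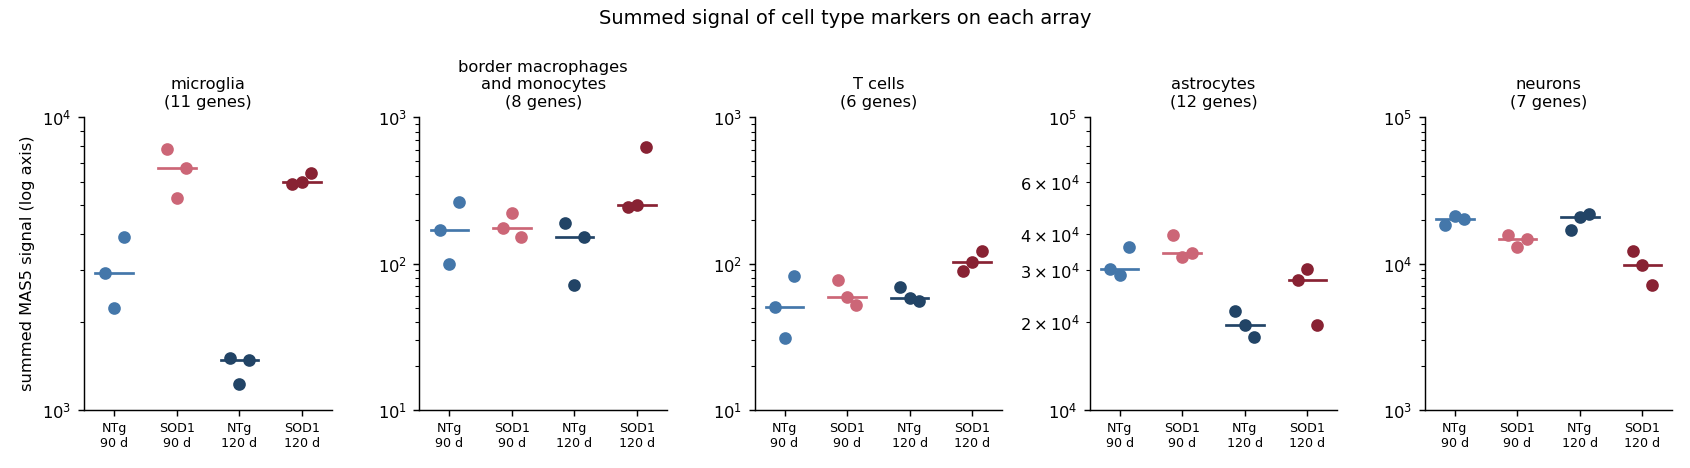
Summed MAS5 signal (log axis) of marker genes of 5 cell types on each array, with 1 point per mouse and a bar at the group median. The microglial sum is higher on every SOD1G93A array than on every NTg array of the same age, and the neuronal sum is lower.

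The genes whose signal followed each called ligand most closely over the 12 arrays, after centring within each age, were found among 12456 tested genes. These correlations include the difference between genotypes that the genes share, and are given without a test. Ccl4 was nearest to Pdcd1 (r = 0.96), Capg (r = 0.95) and Ms4a6c (r = 0.95). Ccl5 was nearest to Gm2629 (r = 0.99), Sash3 (r = 0.97) and Cebpb (r = 0.96). Ccl6 was nearest to Naglu (r = 0.96), Myd88 (r = 0.96) and Ctss (r = 0.94). Cxcl10 was nearest to Gm16499 (r = 0.94), Nde1 (r = 0.92) and Slco2b1 (r = 0.92).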

How the data were processed

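RNA of laser-captured astrocytes from 12 mice, 4 groups of 3, was amplified linearly in a pair of rounds and hybridised to Affymetrix Mouse Genome 430 2.0 arrays. The labels name toluidine blue staining, the study's methods ALDH1L1. The authors deposited linear MAS5 signal intensities (version not given in the sources used here), scaled per array to a trimmed mean of 100 with 2% trimmed at each end. The study's own tests used another summary, PLIER, not analysed here. From the intensities, log2(intensity + 7), 7 being their 20th percentile, was quantile normalized within each age. The 64 control probe sets were left out. limma 3.58.1 (R 4.3.3) fitted 4 group means, leaving 8 residual degrees of freedom, and p-values were adjusted by Benjamini-Hochberg over 26132 probe sets. Each array is 1 mouse, so p-values measure the spread between mice, and 3 per group limit the precision. A gene was given by its brightest probe set with 1 symbol (34958 had 1, 932 several, 9211 none). Genes of the lists were named if called, otherwise up to 3 per list by smallest p, and some after their values were seen. For each called ligand the 3 genes of highest r were named. Ligands, lists and tests were chosen with earlier results of these data known. Alternatives were other scalings, offsets, filters and variance models, the study's rule (a 2-fold change at an unadjusted p under 0.05), a replicate block, and each array left out.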

Additional observations from a re-analysis of the deposited data

How the results depend on the processing

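At 120 days the count of called chemokine probe sets (6) was 4 to 8 under every alternative except the filter at the 75th percentile, which left 1 of them tested and 0 called, and 4 to 7 with each array left out. Ccl5, Ccl6 1420249_s_at and Cxcl16 1449195_s_at were called under each of the 23 alternatives in which they were tested, at log2 fold changes of 3.1 to 5.3, 1.16 to 3.4 and 1.76 to 5.11, and the ends of these ranges came from the offsets of 34 and 1. Each of these probe sets passed the filter through SOD1G93A arrays alone, so its being tested is tied to the difference. Fitting each age alone, or without moderation, left 4 called, losing Ccl6 1417266_at and Cxcl10. Ccl3 gained a call in 6 alternatives and Ccl9 in 2. At 90 days the count (0) was 2 with array weights (Ccl3, adjusted p = 0.0177, and Cxcl16 1449195_s_at, adjusted p = 0.0386). Both passed the filter through SOD1G93A arrays alone, and 12 to 131 of all probe sets were called at 90 days under the limma alternatives. The count was 7 by the study's rule, where 0.999% of all were higher. It was 0 to 1 with each array left out, the 1 being Ccl3 without SOD1G93A replicate 2 of 120 days. For the difference between ages it was 4 by the study's rule, where 3.29% of all were higher, and 0 to 0 with each array left out. By the study's rule 8 were called at 120 days, where 5.23% of all were higher.

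With the replicate block within each age the counts were 0, 6 and 0 at 90 days, at 120 days and for the difference, and over all probe sets 17, 1070 and 0 against 36, 1941 and 0 without it. Deviations from the group mean correlated between same-numbered SOD1G93A and NTg arrays at -0.27, 0.28 and -0.28 at 90 days. At 120 days the values were -0.07, 0.04 and -0.01. Pairs of unlike number ranged from -0.36 to 0.46 at 90 days, the highest being SOD1G93A replicate 1 with NTg replicate 3. The labels name no pairs, and whether samples share a litter or a batch was not tested. Over all probe sets the count called ranged from 12 to 131 at 90 days and 477 to 3483 at 120 days under the limma alternatives. No call turned its direction. The causes were not tested.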
